A study of Mus musculus with 8 samples.

Results

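Cadherins, protocadherins and cell junction genes were described in astrocyte cultures from Spp1 knockout and wild-type mice. Members were the rows of the authors' deposited table whose gene name begins as a cadherin, protocadherin, claudin, connexin, desmosomal gene or adhesion molecule of the immunoglobulin superfamily, leaving out Gjb2, Gjb6, Gjc3, Cldn11 and Cdh19. The rule found 72 of 3624 rows. It used names only, but the table holds only genes that passed the authors' limits, an adjusted p under 0.05 and a log2 fold change beyond 0.58 in either direction. Every member therefore differed between the genotypes by construction, and no test over the members was made. The 5 genes left out by name would add 3 higher and 2 lower genes.

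RNA was sequenced from primary astrocytes of retinas and optic nerves of mice aged postnatal day 1 to 3. Of the samples, 4 were wild type (strain C57BL/6) and 4 were Spp1-/- (strain B6.129S6(Cg)-Spp1tm1Blh/J), which lack Spp1, the gene of the secreted matrix protein and cytokine osteopontin. Both groups grew in the same medium with fetal bovine serum. The knockout strain's name records another background beside B6, and littermate controls are not mentioned, so strain background and the deletion cannot be told apart. Whether replicates of 1 genotype were separate cultures or litters is not in the labels, nor whether animals were pooled or which sex they were. The authors' p-values therefore reflect the scatter of these 8 samples, part or all of which may be technical.

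Cadherins are calcium-dependent adhesion proteins that bind like molecules on neighbouring cells and hold adherens junctions through catenins. Protocadherins are related proteins of the nervous system: those of the alpha, beta and gamma clusters give cells a combinatorial surface identity, and those outside the clusters act in cell sorting and axon growth. Claudins and occludin seal tight junctions, connexins form gap junction channels, desmosomal proteins anchor intermediate filaments, and immunoglobulin adhesion proteins join neurons, glia, vessel cells and leukocytes. Astrocytes are known for gap junctions with each other and for adhesion to axons and vessels.

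No column of the authors' deposited table gave values per sample, so the level in each sample, library depth and outlying samples were not analysed here. Levels below are implied means, the mean normalized count of each genotype worked out from the authors' deposited table on the assumption of equally weighted groups. Spp1 itself, in the authors' deposited table, had a log2 fold change of -5.90 (standard error 0.11), and its sign set the direction read here as knockout over wild type. Its implied means were 26271 (wild type) and 441 (knockout). The Y-linked genes Uty and Kdm5d had implied means of 7.12 and 15.0 in wild type and 457 and 905 in the knockout. Those of the Y-linked Ddx3y and Eif2s3y were 0.16 and 0.16 in wild type and 1605 and 550 in the knockout. The sexes of the cultures and the genotype therefore cannot be told apart.

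Of the 72 members, 31 were higher and 41 lower in the knockout, whereas 54.9% of all listed genes were higher. That is 43.1% of members higher. Their median log2 fold change was -0.64, against 0.66 for all 3624 listed genes. Because the table holds no value between -0.58 and 0.58, a median near those limits moves far when few genes change side. The median size of the change, without sign, was 1.38 for members and 1.14 for all listed genes. In all, 20 members were higher and 28 lower by at least 1 on the log2 scale. Members closest to the fold-change limit were Pcdh10 (-0.58), Nectin1 (-0.59), Dchs1 (0.60) and Pcdhga1 (0.62) on the log2 scale of the authors' deposited table, and those closest to the adjusted p limit were Igsf8 (0.043) and Cdh3 (0.034).

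Families differed in how many of their genes were listed and in direction. Of about 16600 genes tested by the authors, a number estimated from their adjusted p-values, 21.8% were listed, 12% as higher and 9.84% as lower. The mouse annotation holds 224 protein-coding genes that the rule would take, of which 72 (32.1%) were listed. This share is not directly comparable with 21.8%, because annotated genes include ones that were not tested. Listed shares ran from 2 of 36 claudin, occludin and zonula occludens genes to 10 of 12 protocadherins outside the clusters. Absence from the table means no more than a missed limit or an untested gene. Among the absent were Cdh2, the main classical cadherin of neural cells, Gja1, the main connexin of astrocytes, and the tight junction scaffold genes Tjp1 and Tjp3.

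**Figure D1:**
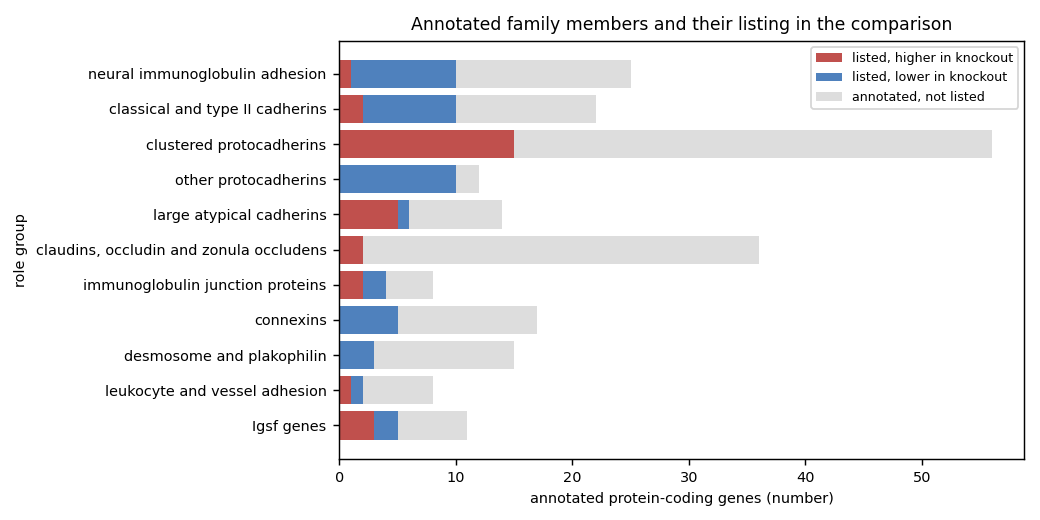
Bars give the number of annotated protein-coding genes in each of 11 role groups, split into listed and higher in the knockout, listed and lower, and not listed. All 15 listed clustered protocadherins were higher, and all 10 listed protocadherins outside the clusters, 5 connexins and 3 desmosomal genes were lower.

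Clustered protocadherins were all higher in the knockout. They comprised 12 of 22 annotated Pcdhb genes and 3 of 21 annotated Pcdhg genes, and 0 of 13 annotated Pcdha genes were listed. The median of the log2 fold changes was 1.03, equal to 2.04-fold, with values from 0.62 to 1.65. The standard errors of the 15 genes had a median of 0.25. Pcdhb16 had the smallest adjusted p of the group (1.8e-08) in the authors' deposited table, with a log2 fold change of 1.40 (standard error 0.23). Its implied means were 65.9 (wild type) and 174 (knockout). Pcdhb17 (0.86, standard error 0.16), Pcdhb18 (1.03, 0.24) and Pcdhb9 (1.20, 0.31) were higher on the log2 scale of the authors' deposited table too. Pcdhb13 and Pcdhb11, at 1.65 and 1.48 in the authors' deposited table, had the largest values and also the widest intervals, from 0.65 to 2.66 and from 0.50 to 2.47.

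Per kilobase of exon, the implied wild-type level of the Pcdhg genes was 42.2 to 93.2, above the 3.06 to 31.1 of the Pcdhb genes, and their changes were smaller than those of most Pcdhb genes. Values in the authors' deposited table were 0.91 for Pcdhga2 (standard error 0.19), 0.72 for Pcdhgb7 (0.16) and 0.62 for Pcdhga1 (0.20). The implied mean of Pcdhga2 went from 382 in wild type to 716 in the knockout. Summed implied means of the 12 Pcdhb genes were 884 in wild type and 1761 in the knockout, a 1.99-fold difference, and those of the 3 Pcdhg genes were 1048 and 1786, a 1.71-fold difference. The intervals of Pcdhb and Pcdhg genes overlapped, and the difference between these families was not tested. The Pcdhg genes share exons with other gamma genes, so their levels and sums may hold reads of those genes. Levels of the 2 families are therefore not directly comparable.

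The cluster spans 912 kb of chromosome 18 at 36930184 to 37841873 in GRCm38. Within it all 15 listed genes were higher. In the flanking 1 Mb on each side, 9 other listed genes comprised 4 higher and 5 lower. One of the lower genes was Pcdh1, a protocadherin outside the clusters at 38185914 to 38212053, with a log2 fold change of -0.66 (standard error 0.15) in the authors' deposited table. On the rest of chromosome 18, 34 of 75 listed genes (45.3%) were higher. The 12 listed Pcdhb genes each have 1 exon, whereas the 3 Pcdhg genes have 4 and share their last exons with the other gamma genes. Of all windows of 100 bases in a Pcdhb gene's transcripts, a median of 0.21% also occurred in another gene (largest 7.73%, for Pcdhb21 with Pcdhb22). For the Pcdhg genes the share ran from 38.4% to 44.1%. Reads from these shared stretches can be split between gamma genes, so single Pcdhg values are uncertain and the 3 genes are not independent of each other.

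**Figure D2:**
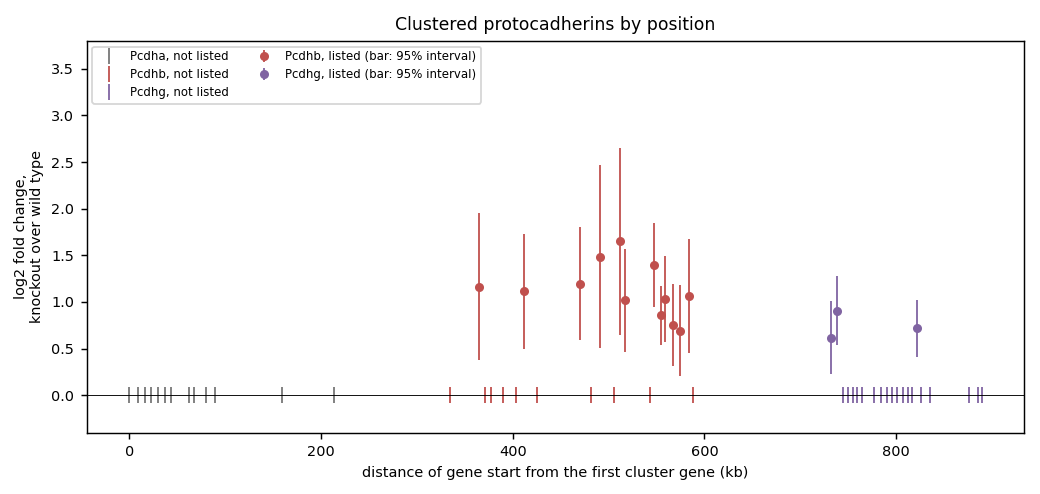
Log2 fold change (knockout over wild type, bars for 95% intervals) of the listed clustered protocadherins against the distance of each gene's start from the first gene of the cluster in kb. Ticks on the line at 0 mark annotated genes that were not listed and carry no value. All 15 plotted values lie above 0, from 0.62 to 1.65, in the beta and gamma parts of the cluster.

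Protocadherins outside the clusters were all lower. The 10 listed genes, of 12 annotated, had a median log2 value of -1.25, equal to a 2.38-fold reduction, with values from -4.42 to -0.58. Pcdh20, on the minus strand of chromosome 14 at 88464743 to 88471396, had the largest fall, with a log2 fold change of -4.42 (standard error 0.40) in the authors' deposited table. Its implied means were 176 (wild type) and 8.17 (knockout), a 21.5-fold lower level. Pcdh17, on the same chromosome at 84443563 to 84539002 on the plus strand, stood at -1.77 (standard error 0.17) in the authors' deposited table, with implied means of 2385 and 697. Pcdh18, which lies on chromosome 3, stood at -1.52 (0.16) in the authors' deposited table, Pcdh9 at -0.92 (0.13) and the X-linked Pcdh11x at -2.67 (0.43). Pcdh10 had the smallest change, at -0.58 (0.12) in the authors' deposited table, with implied means of 6078 and 4060. The remaining genes, Pcdh1, Pcdh7, Pcdh8 and Pcdh19, lay between -2.40 and -0.62. Antisense transcripts overlapped 21.1% of the exon bases of Pcdh7 and 9.61% of those of Pcdh8. Since strand use in counting was not given in the sources used here, these values may hold reads of the antisense gene.

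Pcdh8, Pcdh17, Pcdh20 and Pcdh9 lie within 14.1 Mb of chromosome 14, where 5 genes were listed, all lower, the other being Diaph3. The stretch was drawn around these 4 protocadherins, already known to be lower, so only Diaph3 adds to them. The listed protocadherins outside the clusters were lower on other chromosomes too, and an effect of the region was not tested. On the chromosome outside this stretch, 74 of 130 listed genes (56.9%) were higher. The bases upstream of the start sites of these 4 protocadherins are shown, with each CG dinucleotide, the site of DNA methylation in mammals, in capitals. Each window holds the 250 bases before a RefSeq start (GRCm38.p6), 5′ to 3′ on the gene's strand. Windows that overlap an annotated exon are not printed.
Pcdh8, chr14:79771313-79771562, minus strand: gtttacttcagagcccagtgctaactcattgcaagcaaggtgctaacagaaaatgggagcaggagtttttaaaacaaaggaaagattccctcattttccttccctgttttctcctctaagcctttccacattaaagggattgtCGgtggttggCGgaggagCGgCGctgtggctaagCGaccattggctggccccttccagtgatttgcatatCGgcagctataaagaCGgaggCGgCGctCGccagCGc
Pcdh17, chr14:84443313-84443562, plus strand: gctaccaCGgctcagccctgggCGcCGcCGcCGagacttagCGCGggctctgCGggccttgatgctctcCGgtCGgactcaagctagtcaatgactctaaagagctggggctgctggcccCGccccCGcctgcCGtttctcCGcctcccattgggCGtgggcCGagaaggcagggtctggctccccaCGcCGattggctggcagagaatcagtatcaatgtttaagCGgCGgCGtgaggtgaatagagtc
Pcdh20, chr14:88471397-88471646, minus strand: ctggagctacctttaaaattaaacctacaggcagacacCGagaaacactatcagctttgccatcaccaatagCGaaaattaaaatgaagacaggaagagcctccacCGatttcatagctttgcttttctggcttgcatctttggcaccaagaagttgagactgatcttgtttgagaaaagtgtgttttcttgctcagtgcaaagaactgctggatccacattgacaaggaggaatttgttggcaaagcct
Pcdh9, chr14:93890680-93890929, minus strand: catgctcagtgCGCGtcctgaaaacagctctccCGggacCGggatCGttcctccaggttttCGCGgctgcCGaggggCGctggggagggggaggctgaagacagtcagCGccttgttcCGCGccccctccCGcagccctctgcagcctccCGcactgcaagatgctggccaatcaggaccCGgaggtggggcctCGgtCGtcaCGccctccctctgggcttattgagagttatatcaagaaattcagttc
Counting CG on the gene's strand, which gives the same number on the other strand, the windows held 11 for Pcdh8, 21 for Pcdh17, 3 for Pcdh20 and 18 for Pcdh9. The median over all 32851 windows of this length in the RefSeq table was 6. Windows with at least as many CG made up 35.6% of all windows for Pcdh8, 16.3% for Pcdh17, 71.0% for Pcdh20 and 21.7% for Pcdh9. Thus the gene with the largest fall had the fewest CG of the 4. A window was found for 41 of 72 members, 12 of them higher and 29 lower, but for none of the clustered protocadherins, which were all higher. The median CG count was 6 over windows of these higher members and 10 over those of these lower members, some genes having several windows. The 9 windows of protocadherins outside the clusters, all lower, had a median of 18. These medians therefore do not compare higher with lower members as a whole. Methylation was not measured here.

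Classical and type II cadherins were taken by names of Cdh and a number, which also take in other types such as Cdh13. They were mostly lower, with 8 lower and 2 higher of 22 annotated genes. Their median log2 fold change was -1.49. Cdh19, left out by name, was lower too, at -1.11 (standard error 0.20) in the authors' deposited table. Cdh10, a type II cadherin on chromosome 15 at 18818947 to 19014236, stood at -2.21 (standard error 0.17) in the authors' deposited table, with implied means of 393 in wild type and 85.0 in the knockout. Cdh20, another type II cadherin, stood at -1.96 (0.18) in the authors' deposited table, with implied means of 416 and 107. Cdh13, a cadherin held to the membrane by a lipid anchor, had -1.07 (0.17), and Cdh6, a type II cadherin, had -1.16 (0.23) in the authors' deposited table. Cdh3, Cdh8, Cdh18 and Cdh26 were lower by 1.46 to 2.29 with standard errors from 0.34 to 0.89 in the authors' deposited table.

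The higher cadherins were Cdh1 and Cdh5. Cdh1, the epithelial E-cadherin, rose by 3.62 (standard error 0.63) in the authors' deposited table, from an implied mean of 5.57 to 68.4, a 12.3-fold higher level with a 95% interval of 2.39 to 4.85 on the log2 scale. Cdh5, the vascular endothelial cadherin on chromosome 8 at 104101625 to 104144511, rose by 1.11 (0.11) in the authors' deposited table, from 1347 to 2909. Markers of vessel endothelium did not move one way beside it. Of 12 such markers 4 were listed, with Kdr, a growth factor receptor, and Cdh5 itself higher, and Esam and Flt1 lower, the last named after its value was seen. Their summed implied means were 2376 in wild type and 3783 in the knockout, most of it from Cdh5. The table gives no value for the other 8, among them Pecam1, Cldn5 and Tie1.

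Large atypical cadherins were mostly higher, with 5 higher and 1 lower of 14 annotated genes. Fat3, a giant cadherin that shapes retinal neurons, rose by 1.36 (standard error 0.19) in the authors' deposited table, from an implied mean of 450 to 1155. Cdhr1, a cadherin of photoreceptor outer segments, rose by 1.55 (0.20) in the authors' deposited table, from 125 to 365. Dchs1, the partner that binds Fat cadherins on the next cell, rose by 0.60 (0.12) in the authors' deposited table. Fat2 and Cdhr3 had large values, 3.44 (0.82) and 3.09 (0.84) in the authors' deposited table, at implied means of 2.04 and 2.03 in wild type, so their sizes depend on counts near 0. Fat1 was the exception, lower by 0.62 on the log2 scale (standard error 0.18) in the authors' deposited table, from 21534 to 14057.

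**Figure D3:**
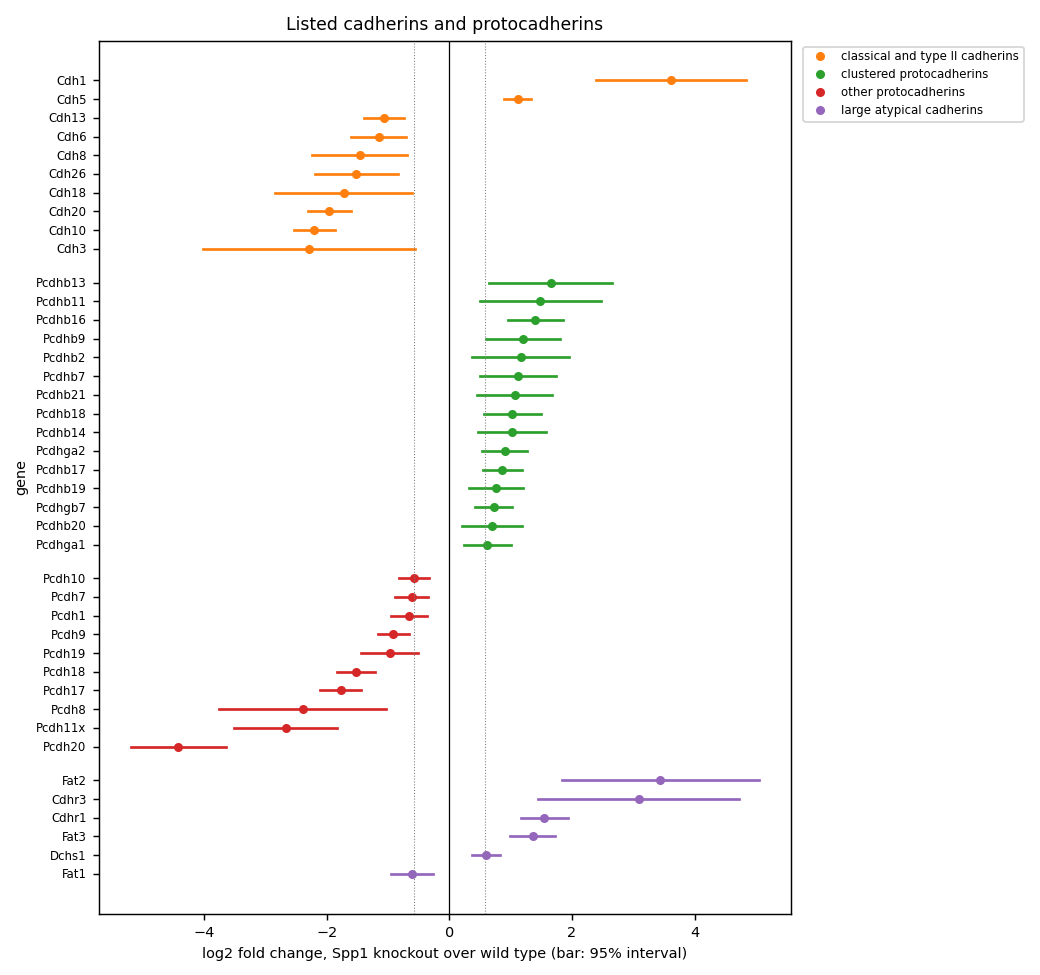
Log2 fold change (knockout over wild type) of the 41 listed cadherins and protocadherins, as points with 95% intervals, grouped by role. Dotted lines mark the fold-change limit of 0.58 on either side. Clustered protocadherins lie to the right and the other protocadherins to the left, with Cdh1, Cdh5 and Fat1 against most of their groups.

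Neural immunoglobulin adhesion genes were mostly lower, with 9 lower and 1 higher of 25 annotated genes. On the log2 scale their median was -0.86, equal to a 1.81-fold reduction. Nfasc, which encodes neurofascin of the node of Ranvier and axon initial segment, stood at -1.10 (standard error 0.12) in the authors' deposited table, from an implied mean of 5563 to 2591. Ncam1, the neural cell adhesion molecule, stood at -0.99 (0.13) in the authors' deposited table, from 10665 to 5369. Nrcam, a partner of neurofascin at nodes, had -0.67 (0.14), and Cntnap2, the Caspr2 protein beside potassium channels, had -1.74 (0.33) in the authors' deposited table. Cntnap1, the Caspr protein of the paranodal axon, was the higher gene, with 0.96 (0.15) in the authors' deposited table and implied means of 252 and 490.

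All 3 listed Cadm genes, of 4 annotated, were lower by similar amounts. Cadm2, Cadm3 and Cadm4, adhesion proteins between axons and glia and at synapses, stood at -0.70, -0.68 and -0.73 on the log2 scale of the authors' deposited table, with standard errors of 0.13, 0.17 and 0.23. Per kilobase of exon, Cadm4 had the highest implied level of all members, 7555 in wild type and 4558 in the knockout. Fat1 followed at 1376 and 898 per kilobase, and Ncam1 at 1231 and 620. Cntn6 and Dscam, neuronal immunoglobulin proteins, stood at -2.01 and -3.04 on the log2 scale of the authors' deposited table, from implied means of only 29.6 and 53.6. Dscam was taken in by the letters it shares with desmocollins, and it is counted here by its known role.

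Axon-glia junction partners were lower beside these genes. The list of 17 such genes holds partners of nodes, paranodes and perineuronal matrix, and also Mag, Nrg1 and Erbb3. Of these 17, 9 were listed, each of them lower, against 45.1% lower among all listed genes. Their median log2 value was -2.01. Ank3, the ankyrin that anchors neurofascin, stood at -2.01 (standard error 0.15) in the authors' deposited table, the proteoglycan gene Ncan at -1.69 (0.12) and Mag at -6.43 (0.53). Neuron markers were lower as well, in 8 of 8 listed of 12, with summed implied means of 18896 in wild type and 8536 in the knockout. Markers of myelinating glia and Schwann cells were lower in 11 of 12 listed of 14, with sums of 7276 and 3150, the exception being Cldn11. Mag and Erbb3 are counted both among these markers and among the partners, so the lists overlap. In bulk RNA, fewer cells of a type and less RNA per cell cannot be told apart. The part of these cells in the adhesion gene values was not tested.

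Of 36 annotated claudin, occludin and zonula occludens genes that the rule takes, 2 were listed, Ocln and Cldn2, and these were higher. Cldn11, a claudin left out by name, was also listed and higher, at 2.93 (standard error 0.15) in the authors' deposited table. Its implied means were 282 (wild type) and 2145 (knockout). Ocln, which encodes the tight junction protein occludin, rose by 2.50 (standard error 0.23) in the authors' deposited table, from an implied mean of 39.96 to 225, a 5.64-fold higher level. Cldn2, a pore-forming claudin on the X chromosome, rose by 2.33 (0.47) in the authors' deposited table, from 16.1 to 81.1. F11r, the junctional adhesion molecule A, rose by 1.41 (0.24) in the authors' deposited table, from 159 to 423, and Nectin4, an adherens junction protein of epithelia, by 1.26 (0.45). Nectin1, which binds other nectins at adherens junctions, was lower by 0.59 on the log2 scale (0.13) in the authors' deposited table. Esam, an adhesion molecule of endothelial cells and platelets, fell by 3.96 on the log2 scale (0.64) in the authors' deposited table, from 78.4 to 5.05. Thus 2 immunoglobulin junction genes were higher and 2 lower, of 8 annotated. The upstream windows of Ocln and Cldn2 are shown for comparison with the protocadherins, with CG again in capitals.
Ocln, chr13:100552719-100552968, minus strand: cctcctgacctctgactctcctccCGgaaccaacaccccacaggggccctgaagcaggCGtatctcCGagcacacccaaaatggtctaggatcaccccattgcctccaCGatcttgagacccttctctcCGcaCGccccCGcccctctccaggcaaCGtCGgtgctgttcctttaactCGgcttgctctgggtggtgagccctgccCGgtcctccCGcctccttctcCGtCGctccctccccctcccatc
Cldn2, chrX:139800558-139800807, plus strand: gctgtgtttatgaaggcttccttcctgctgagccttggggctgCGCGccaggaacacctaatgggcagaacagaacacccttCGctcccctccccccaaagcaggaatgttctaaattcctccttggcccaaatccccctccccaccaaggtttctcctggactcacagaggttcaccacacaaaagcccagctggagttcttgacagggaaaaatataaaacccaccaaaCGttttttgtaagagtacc
They held 14 CG for Ocln and 4 for Cldn2, and 29.4% and 62.2% of all windows held at least as many. Another window of Ocln, not printed because it overlaps exons, held 22 CG, and 14.8% of all windows held at least as many.

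Beside Ocln and Cldn2, all 10 listed of 12 markers of meninges and fibroblasts were higher. Their summed implied means were 37858 in wild type and 85120 in the knockout, with a median log2 fold change of 2.32. Of 11 markers of pigment and ciliary epithelium 3 were higher and 1, Dct, lower, with sums of 238 and 649, and with the keratin genes Krt8 and Krt18 not listed. Whether such cells carry the junction genes was not tested. Scaffold and polarity genes of tight junctions showed 1 higher and 3 lower listed of 24: Cgnl1, a cingulin-like plaque protein, had 0.79 (standard error 0.17), Amotl2 had -0.59 (0.12) and Marveld1 had -0.64 (0.18) in the authors' deposited table.

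Connexins among the members were lower in all 5 listed genes, of 17 annotated, and 3 of them are described here. The direction does not hold for the whole family: of the connexin genes left out by name, Gjb2 and Gjb6 were higher, at 2.63 (standard error 0.23) and 4.28 (0.37) in the authors' deposited table, and Gjc3 was lower, at -2.37 (0.37). Gja5, a connexin of arterial endothelium, stood at -1.44 (standard error 0.49) in the authors' deposited table, from an implied mean of 81.8 to 30.2. Of its 100-base windows, 11.6% also occurred in another gene, such as Zfp697, so its value is uncertain. Gjd4, a connexin with an implied mean of 13.1 in wild type and 1.59 in the knockout, stood at -3.05 (1.16) in the authors' deposited table. Gjb1, the connexin 32 gene of Schwann cells and oligodendrocytes, had -6.09 (1.33) in the authors' deposited table, with implied means of 13.6 and 0.20. With a knockout mean that close to 0 the size of this fold depends on the fit, and its 95% interval ran from -8.71 to -3.48.

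Desmosomal genes were lower too, from low levels. Dsc2, a desmosomal cadherin, stood at -2.09 (standard error 0.34) in the authors' deposited table, from an implied mean of 99.8 to 23.4. Dsp, which encodes desmoplakin, the link to intermediate filaments, stood at -2.76 (0.47) in the authors' deposited table, from 49.0 to 7.22. Pkp1, a plakophilin of the desmosomal plaque, had -3.83 (1.21) in the authors' deposited table, with implied means of 12.9 and 0.91, both low. Of 15 annotated names in this group 3 were listed, and 1 of the 15, Dscc1, is a chromosome cohesion gene caught by its letters.

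Among adhesion genes of vessels and leukocytes, Mcam and Alcam moved in opposite directions, and 6 of 8 annotated genes, Icam1, Vcam1 and Pecam1 among them, were not listed. Mcam, the melanoma cell adhesion molecule of pericytes, vessels and Schwann cells, stood at -1.74 (standard error 0.19) in the authors' deposited table, from an implied mean of 3313 to 989. Alcam, an activated leukocyte adhesion molecule that is also present on growing axons, rose by 0.79 (0.26) in the authors' deposited table, from 1557 to 2683. Pericyte and smooth muscle markers were lower in 4 of 4 listed of 10, with sums of 91839 in wild type and 48001 in the knockout, and their part in the value of Mcam was not tested.

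Igsf genes, a loose family of immunoglobulin proteins, showed 3 higher and 2 lower. Igsf6, a receptor of myeloid cells on chromosome 7 at 121064067 to 121074572, rose by 2.73 (standard error 0.19) in the authors' deposited table, from an implied mean of 48.7 to 323. It had the smallest adjusted p of all members, 3.7e-43. Markers of microglia and macrophages were higher beside it, in 11 of 11 listed of 12, with sums of 11392 and 63334 and a median log2 fold change of 2.30. The part of these cells in the value of Igsf6 was not tested. Igsf11, a synaptic and glial adhesion protein, rose by 0.85 (0.12) and the X-linked Igsf1 by 0.82 (0.18) in the authors' deposited table. Igsf21, an adhesion protein of inhibitory synapses, fell by 3.92 on the log2 scale (1.02) in the authors' deposited table from an implied mean of 15.9 to 1.05. Igsf8 had -0.62 (0.25) in the authors' deposited table.

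**Figure D4:**
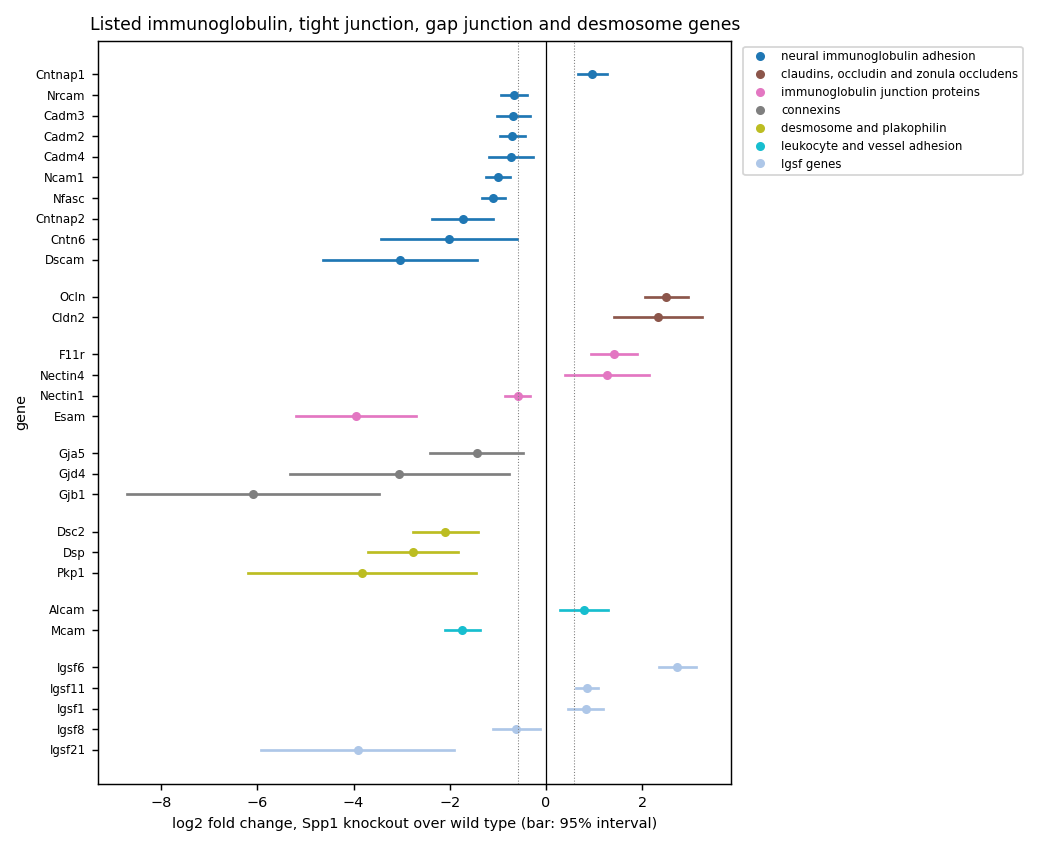
Log2 fold change (knockout over wild type) of 29 of the listed immunoglobulin, tight junction, gap junction, desmosome and vessel adhesion genes, as points with 95% intervals. The 3 connexins shown and the desmosomal genes lie to the left of 0, and Ocln, Cldn2 and F11r to the right, with Cntnap1 on the opposite side from the other neural genes.

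Partner lists differed in how many genes were listed, where 21.8% of all tested genes were. Of 14 catenin and adherens plaque genes 1 was listed (7.14%), Ctnnd2, which encodes the neural delta-catenin, at -0.79 (standard error 0.15) in the authors' deposited table. Of 14 planar polarity and Fat pathway genes other than members, 2 were higher and 2 lower (28.6% listed). Fzd3 had 0.91 (0.24), Ankrd6 had 0.64 (0.15), Ptk7 had -0.61 (0.13) and Dvl1 had -0.81 (0.21) in the authors' deposited table. Sheddases and transcription factors of cadherin control gave 3 listed of 15 (20%): the protease gene Adam8 had 2.27 (0.12), and the mesenchymal factor genes Twist1 and Twist2 had -1.22 (0.21) and -1.70 (0.37) in the authors' deposited table.

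Astrocyte identity was checked with 12 markers, of which 4 were higher and 3 lower. Gfap rose from an implied mean of 58314 to 91923 and Aqp4 from 15585 to 34520. Aldoc was also higher, and Gjb6 rose by 4.28 on the log2 scale of the authors' deposited table. S100b, Fabp7 and Pax2 had log2 fold changes of -1.82 (standard error 0.15), -1.23 (0.10) and -0.98 (0.26) in the authors' deposited table. The implied mean of S100b fell from 913 to 259, that of Fabp7 from 9011 to 3836 and that of Pax2 from 162 to 81.9. Astrocyte markers thus moved in both directions, and Gfap, Aqp4, S100b and Fabp7 had counts in both genotypes. Markers of retinal progenitors and Müller glia were lower in 6 of 6 listed of 10, with sums of 9595 and 5066.

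Levels of members ran from a mean normalized count of 6.92 for Pkp1 and Gjb1 to 17795 for Fat1, and precision followed the level. Of the 72 members, 44 had a mean normalized count of at least 100, with a median standard error of 0.18, and the other 28 had 0.54. Among the 44, 21 were higher and 23 lower (47.7% higher, against 54.6% of all listed genes at that level). Among the 28, 10 were higher and 18 lower (35.7% higher, against 55.8% of all 951 listed genes with a mean under 100). The absolute change of all 28 was 1 or more on the log2 scale, as was that of 886 of the 951. That size is thus common to listed genes of low level and not particular to members.

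**Figure D5:**
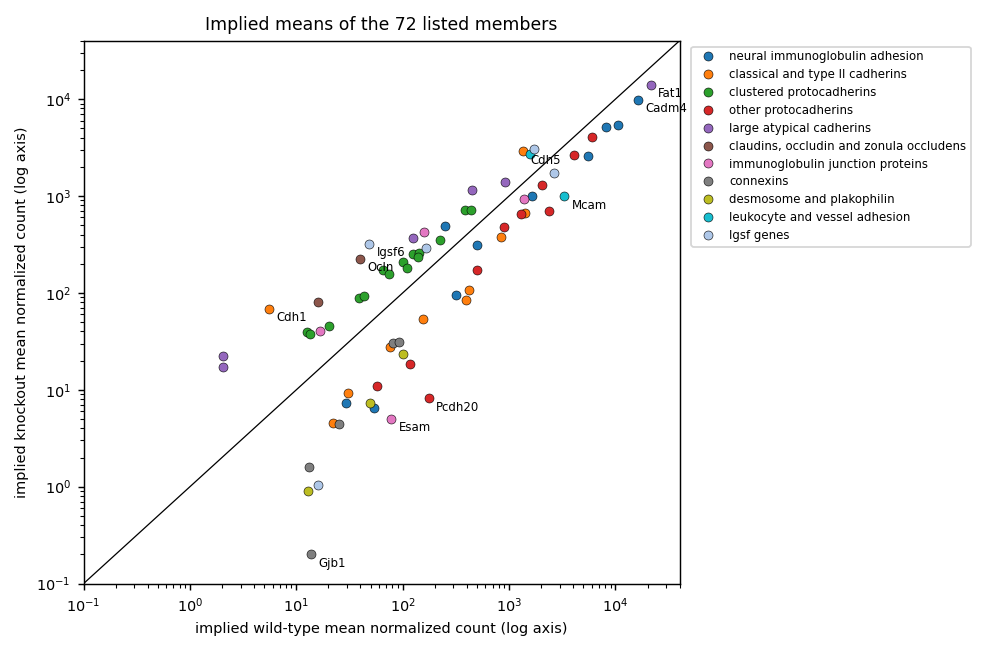
Implied mean normalized count of each of the 72 members in the knockout against wild type, on log axes, coloured by role group; the line marks equal levels. Pcdh20, Esam and Gjb1 lie far below the line and Cdh1, Ocln and Igsf6 above it, and genes with high counts, such as Fat1 and Cadm4, lie close to it.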

How the data were processed

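RNA sequencing of 8 samples (4 wild type, 4 Spp1 knockout) was used through 1 table that the authors deposited, with 0 columns of per-sample values. Per the submitters' processing notes, CASAVA 1.8, STAR 2.7, DESeq2 1.30.1 and the build GRCm38 were used, with no roles given and with annotation, counting, strand use and filtering not given in the sources used here. Per the file headers, the authors gave each gene a mean of normalized counts over all samples (a signal without a unit per sample), its log2 fold change and the standard error of that log2 value, a Wald score, and p-values before and after adjustment. All values in the table had an adjusted p of at most 0.0499.

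Directions, counts and medians were computed from these values with Python 3.11.15 and pandas 2.3.3, with no test over genes. For 95% intervals, the standard error was multiplied by the normal quantile and set on either side of the log2 value. The number of genes tested was estimated in the 20 top genes with a p above 0. Adjusted p was divided by raw p and multiplied by the gene's rank by p, and the median was taken. That step was tested on 20 simulated tables of 16000 genes. Genes were placed with GENCODE M21, which matched 3586 of 3624 rows, and upstream bases came from RefSeq. Transcript windows of 100 bases were compared on the transcribed strand. Depth per sample is unknown, and the standard errors carry the precision.

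Members, the 11 role groups, 5 lists of partner genes and 9 lists of cell type markers were chosen with earlier results of these data known. Values are given for up to 6 members of each role group with the smallest adjusted p, members against their group's direction, the 5 largest rises and falls, up to 3 genes of each other list, and genes against their list's direction. Other genes, among them Pcdh1, Pcdhb11, Pcdhb13, Cadm3, Cadm4, Cntn6, Dscam, Gfap, Aqp4 and the genes left out by name, were picked after their values were seen. Some members are not reported here. Alternatives were limits on the mean, fold change and adjusted p, and leaving out clustered protocadherins, marker genes, sex chromosomes or chromosome 5.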

Additional observations from a re-analysis of the deposited data

How the results depend on the processing

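At a mean of 100 normalized counts or more the members comprised 21 higher and 23 lower. With changes of 1 or more on the log2 scale they comprised 20 and 28, with a median of -1.45. Without clustered protocadherins 16 were higher and 41 lower, with a median of -0.99, these 15 genes all being higher. An adjusted p of at most 0.01 left 27 and 35. Leaving out marker genes, sex chromosomes, chromosome 5 or Dscam, or adding the 5 genes left out by name, kept between 29 and 34 higher and between 38 and 43 lower, and the last of these settings with the one on Dscam was chosen after seeing the data. In these 9 settings the median of members stayed below 0 and that of all listed genes above 0. Of 96 medians of role groups under them, 84 moved by less than the group's median standard error and 2 changed sign. These were Igsf genes (-0.59 with changes of at least 1, 2 genes left) and immunoglobulin junction proteins (-0.59 at an adjusted p of at most 0.01, 3 genes left). Many of the 84 could not move, because the setting removed or added no gene of that group. Leaving out clustered protocadherins, for example, left every other group unchanged. The 84 are therefore no measure of stability. No paired analysis was possible because the table carries no per-sample values, and leaving out single replicates was not run for the same reason. Depth per sample is unknown. Genes below the fold-change limit are outside the table, so a family's listed members do not stand for the whole family.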
